A study of Rattus norvegicus with 9 samples.

Results

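The levels of 10 genes of pericellular matrix breakdown were followed in rat synovial fibroblasts: the gelatinase gene Mmp2, the membrane metalloproteinase genes Mmp14, Mmp15, Mmp16 and Mmp17, the tissue inhibitor genes Timp1, Timp2, Timp3 and Timp4, and the membrane-anchored inhibitor gene Reck. They were taken by gene symbol, and all 10 were found among the 17298 genes of the table. Messenger RNA was sequenced from wild-type (WT) synovial fibroblasts, which line the joint, isolated from digested tissue. The libraries form 3 groups of 3: a control in normal culture with no IL-1β, cells in normal culture with IL-1β, an inflammatory cytokine, and a co-culture group that received IL-1β and shared a transwell with dermal fibroblasts, the synovial cells lying in the lower chamber. All groups are of 1 genotype. The sources used here do not give the dose and duration of IL-1β, the animals' age and sex, whether a group's cells came from 1 or several animals, or whether the control and IL-1β wells had an empty insert. Co-culture without IL-1β was not analysed here, so the dermal cells and the conditions of co-culture cannot be told apart.

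MMP2 is a secreted protease that cuts denatured collagen and the type IV collagen of basement membranes. It is released as an inactive proenzyme, and at the cell surface a complex of MMP14, also called MT1-MMP, with TIMP2 holds the proenzyme so that a neighbouring MMP14 can cut it. TIMP2 therefore takes part in activation as well as in inhibition. TIMP3 is bound to the matrix and also inhibits ADAM and ADAMTS proteases, and RECK restrains several of these metalloproteinases from the cell membrane. In the inflamed joint these enzymes are known for the invasion of cartilage by synovial fibroblasts.

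Levels are in FPKM, mapped fragments scaled by transcript length and by library size, as mean ± SD over 3 libraries. Of the 10 genes, 7 reached a mean of at least 1 FPKM over the 9 libraries and were tested with limma among 11372 genes; each of these 7 was above 1 FPKM in every library. Mmp15, Mmp17 and Timp4 were below that level and are given by their values. Adjusted p-values printed for them from a fit without the filter, over 17288 genes, are not counted as passes. A gene is said to have passed where its p, with Benjamini-Hochberg adjustment over these 11372 genes, was below 0.05. Fold changes called log2 were fitted to log2(FPKM + 1) and carry the fit's standard error (SE). FPKM is relative within a library, so that in these bulk samples fewer cells that express a gene and less RNA of it per cell cannot be told apart. The labels do not say that the libraries of a group are separate cultures, and the p-values rest on library-to-library spread alone, which may be technical.

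The libraries of a group resembled each other more than those of other groups, with rank correlations across genes of 0.9946 to 0.9959 within and 0.9584 to 0.9912 between groups. All 9 listed synovial fibroblast markers were present, at a summed 9850 to 10400 FPKM in control, 5640 to 5840 with IL-1β and 8470 to 8670 in co-culture. Of these, Vim (4902 and 2114 FPKM), Col1a1, Col1a2, Thy1 and Cdh11 were lower with IL-1β than in control. Prg4 (96.1 and 297.5 FPKM), Pdpn (186.1 and 347.6 FPKM), Pdgfra and Pdgfrb were higher. The 5 endothelial markers summed to at most 1.15 FPKM and the 3 keratinocyte markers in the table, of 6 listed, to at most 2.17 FPKM. Of 8 macrophage and leukocyte markers 7 were in the table, at 26.0 to 28.1 FPKM in control, 35.1 to 39.0 with IL-1β and 25.9 to 27.8 in co-culture, with Cd14 (13.5, 22.7 and 15.8 FPKM) the highest. Cd68 (2.30 and 4.77 FPKM) and Adgre1 (0.487 and 1.22 FPKM) were also higher with IL-1β than in control. Lyz2 (10.65 and 7.99 FPKM) and Ptprc (0.103 and 0.0667 FPKM) were lower, and Csf1r and Cd79a overlapped. The 7 chondrocyte markers summed to 203 to 217, 26.4 to 28.8 and 85.6 to 88.3 FPKM in the same order, 6 of 7 pericyte and smooth muscle markers to 185 to 193, 67.9 to 72.4 and 149 to 158 FPKM, and the 7 dermal fibroblast markers to 86.9 to 96.9, 447 to 464 and 149 to 160 FPKM. Sfrp2 (15.2, 325 and 70.9 FPKM) made up most of that rise. Twist2 (29.5 and 86.0 FPKM) and En1 (3.58 and 12.6 FPKM) were also higher with IL-1β than in control. Crabp1 (28.0 and 15.7 FPKM), Dpt (3.36 and 2.31 FPKM) and Lef1 (0.797 and 0.227 FPKM) were lower, and Trps1 (12.9 and 13.1 FPKM) overlapped. No listed marker in the table was at 0 in all libraries, and the part of these shifts in the results below was not tested.

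At rest 4 of the 10 genes were abundant. In control cells Mmp2 stood at 567 ± 3.72 FPKM, which ranked it 192nd of 17298 genes. Timp1 followed at 507 ± 5.15, Timp2 at 323 ± 14.1 and Mmp14 at 240 ± 5.04 FPKM, with no overlap between neighbours in this order. Reck lay lower, at 49.7 ± 1.15 FPKM, followed by Mmp16 at 5.76 ± 0.185 and Timp3 at 4.54 ± 0.122 FPKM. Timp4, at 1.06 ± 0.129 FPKM, and Mmp17, at 1.04 ± 0.25 FPKM, overlapped, and Mmp15 was lowest at 0.423 ± 0.0981 FPKM. With IL-1β the upper order was kept, Timp2 at 287 to 314 FPKM now lying just above Mmp14 at 274 to 283, while Timp3 moved above Mmp16.

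**Figure D1:**
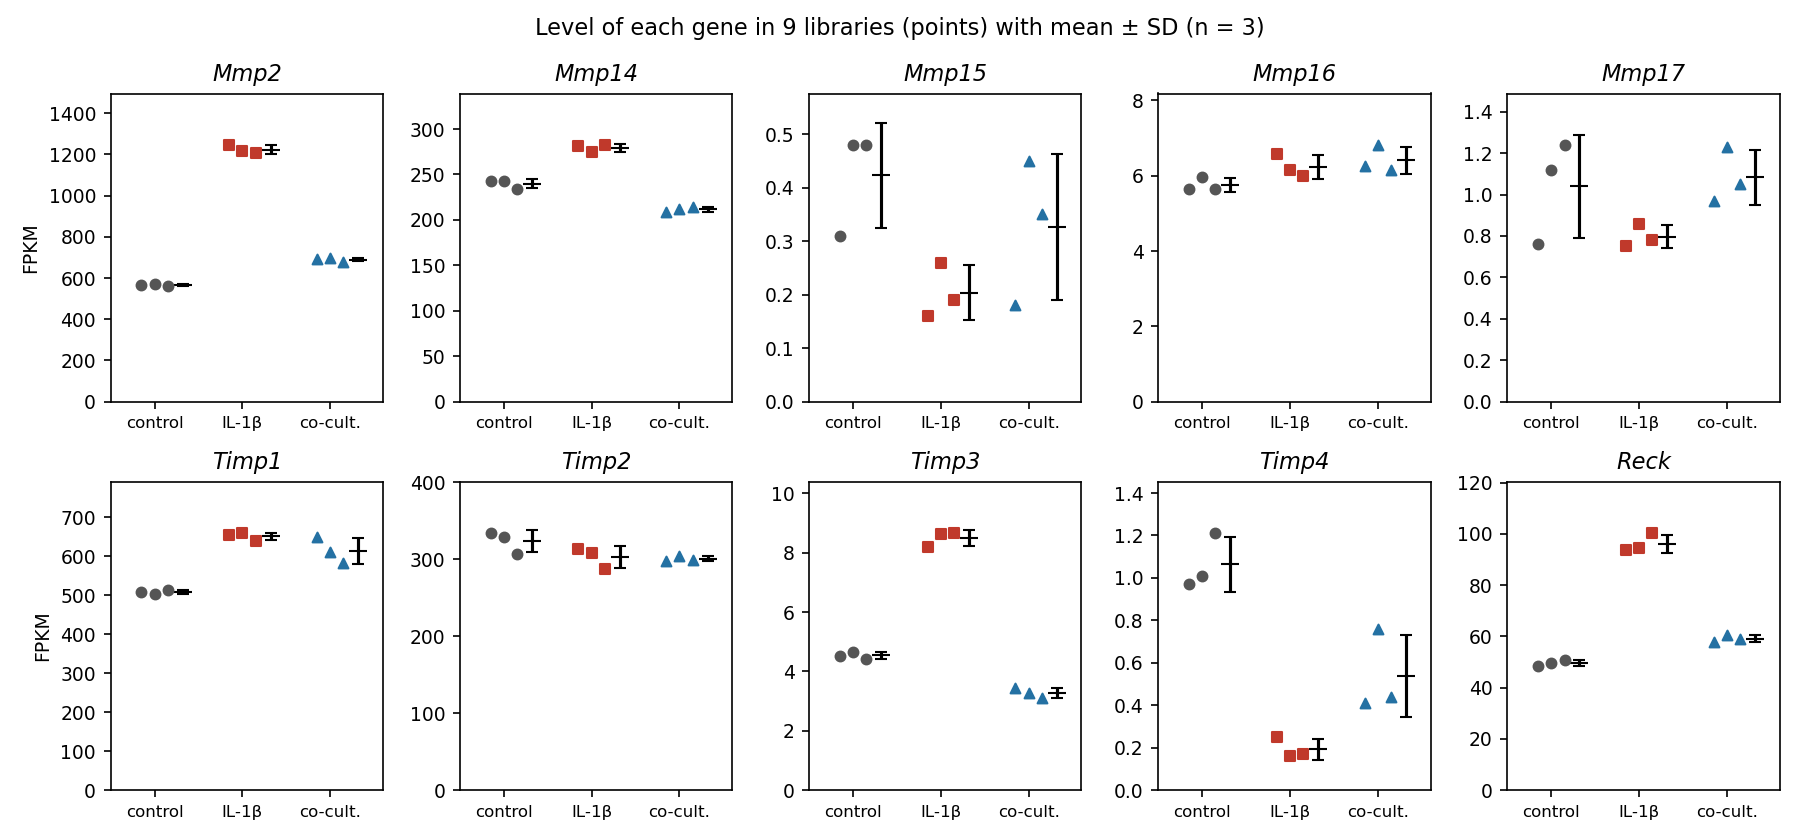
FPKM (vertical axes, each from 0) of the 10 genes in control (circles), IL-1β (squares) and co-culture (triangles) libraries, with the mean and SD of 3 libraries as black bars. Mmp2, Timp3 and Reck are highest in the 3 IL-1β libraries, Timp1 stays high in co-culture and Timp4 is lowest with IL-1β.

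The first comparison asked how IL-1β moved this system. Mmp2 and 3 inhibitor genes, Reck, Timp3 and Timp1, rose together with Mmp14, whereas Timp2 and Mmp16 did not pass. Of the 7 tested genes 5 rose and none fell, with a median log2 fold change of 0.36 against -0.044 for all genes tested. Among all 11372 genes 51.7% passed, 20.5% as higher and 31.2% as lower. These splits were 2330 higher and 3544 lower genes, against 2888 and 2876 with median-of-ratios scaling, or 1636 and 5250 with each library rescaled to the same FPKM sum.

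Mmp2 was listed at 567, 571 and 563.5 FPKM in the control libraries and, with IL-1β, at 1246, 1218 and 1205 FPKM. No library of 1 group came near the other, and Mmp2 rose 2.16-fold, or by 1.11 ± 0.03 on the log2 scale (limma adjusted p = 1.7e-11). That rise was the 284th largest of the 11372 genes. With it Mmp2 went from 69.6% ± 0.309 to 81.0% ± 0.329 of the summed FPKM of the 5 metalloproteinase genes.

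Mmp14, which encodes the surface activator of proMMP2, changed far less. It stood at 243.0, 242.8 and 234.2 FPKM in control and, with IL-1β, at 281.5, 274.5 and 282.6 FPKM, so that the groups did not overlap. Its log2 rise was 0.22 ± 0.03 (limma adjusted p = 4.1e-05), or 1.16-fold. Mmp16, another membrane-spanning activator gene (MT3-MMP), was at 5.64, 5.97 and 5.66 FPKM in control and 6.59, 6.14 and 5.98 FPKM with IL-1β. The IL-1β libraries were all above control, the closest barely so, and the difference did not pass (log2 fold change 0.10, 95% interval -0.023 to 0.22, limma adjusted p = 0.16). Mmp15, the gene of MT2-MMP, went from 0.31 to 0.48 FPKM in control to 0.16 to 0.26 FPKM with IL-1β, and Mmp17, whose product is held by a glycolipid anchor, from 0.76 to 1.24 to 0.75 to 0.86 FPKM. Both were at or below about the level of the filter, Mmp17 with overlapping groups. In a fit without the filter Mmp15 had an adjusted p of 0.041 and Mmp17 of 0.18 (limma).

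Among the inhibitors, Reck had the largest rise. It was at 48.6, 49.7 and 50.9 FPKM in control and at 93.8, 94.4 and 100.2 FPKM with IL-1β, a 1.93-fold difference (log2 fold change 0.94 ± 0.04, limma adjusted p = 9.3e-10). Timp3 rose 1.87-fold from a low level. Its libraries stood at 4.51, 4.67 and 4.43 FPKM in control and, with IL-1β, at 8.20, 8.63 and 8.65 FPKM (log2 fold change 0.78 ± 0.05, limma adjusted p = 1.6e-07). Both genes had IL-1β libraries well clear of the control range.

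Timp1, the most abundant inhibitor gene here, went from 507, 502 and 512 FPKM in control to 653, 658 and 639 FPKM with IL-1β. The rise was 1.28-fold (log2 fold change 0.36 ± 0.04, limma adjusted p = 9.2e-06), smaller than those of Mmp2, Reck and Timp3 but without overlap. Timp2 was at 333.6, 329.0 and 307.2 FPKM in control and 313.7, 308.0 and 287.0 FPKM with IL-1β, so the groups overlapped. Its log2 fold change of -0.09 (95% interval -0.182 to -0.005) did not pass, with a limma adjusted p of 0.073. That call depended on the processing: Timp2 was lower with an adjusted p of 0.017 after quantile normalization, 0.0062 after rescaling to the same FPKM sum, 0.021 without control replicate 3 and 0.042 without IL-1β replicate 1.

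Timp4 went the opposite way to Timp3, at levels near or below 1 FPKM. It was listed at 0.97, 1.01 and 1.21 FPKM in control and, with IL-1β, at 0.25, 0.16 and 0.17 FPKM. The groups did not overlap, and the control mean was 5.5 times the IL-1β mean. In the fit without the filter its log2 fold change was -0.79 ± 0.09 (limma adjusted p = 9.7e-05). Timp1, Timp3 and Timp4 overlap the synapsin genes Syn1, Syn3 and Syn2 in the RefSeq gene table (assembly GRCr8), and no source states that strand was used in counting, so reads of such pairs cannot be told apart. Syn1 was at 0.15 to 0.42 FPKM, Syn3 at most at 0.06 and Syn2 at most at 0.02 FPKM in any library, and Cep295nl, which overlaps Timp2, was at 0.3 to 0.62 FPKM.

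Promoter sequence is shown for the inhibitor genes whose window lay wholly outside the annotated gene, since Reck and Timp3 passed in all 3 comparisons and Timp2 in none. The windows are the 250 bases before the RefSeq start on the gene's own strand, from RefSeq build GRCr8, 5′ to 3′. Windows were found for 6 of the 10 genes (Mmp15, Timp1, Timp2, Timp3, Timp4 and Reck); Mmp2, Mmp14, Mmp16 and Mmp17 had no match. Capitals mark matches, on either strand, to the GC box motif GGGCGG and the CCAAT box motif CCAAT. The TATA box motif TATAAA was searched on both strands in the same way. So was the AP-1 motif TGANTCA, with its variant TGAGTAA, and the NF-kB consensus by name. In the windows shown, no matches of different motifs overlapped.
Reck, chr5:62898467-62898716, plus strand: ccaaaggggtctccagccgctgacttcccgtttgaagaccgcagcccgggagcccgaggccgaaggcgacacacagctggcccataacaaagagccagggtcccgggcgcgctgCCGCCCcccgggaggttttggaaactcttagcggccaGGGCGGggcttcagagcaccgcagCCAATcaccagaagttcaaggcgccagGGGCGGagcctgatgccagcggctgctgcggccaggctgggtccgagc
Timp3, chr7:19459559-19459808, minus strand: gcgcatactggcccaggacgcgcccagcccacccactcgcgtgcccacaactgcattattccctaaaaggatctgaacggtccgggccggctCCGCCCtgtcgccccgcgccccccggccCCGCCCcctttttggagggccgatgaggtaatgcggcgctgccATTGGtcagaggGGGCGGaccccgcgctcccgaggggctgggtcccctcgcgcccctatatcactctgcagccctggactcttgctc
Timp2, chr10:104089215-104089464, minus strand: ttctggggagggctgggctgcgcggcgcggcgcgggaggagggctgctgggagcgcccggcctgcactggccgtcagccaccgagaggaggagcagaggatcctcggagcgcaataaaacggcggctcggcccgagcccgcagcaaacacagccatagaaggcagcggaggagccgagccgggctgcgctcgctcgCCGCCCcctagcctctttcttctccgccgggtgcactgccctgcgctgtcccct

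The Reck and Timp3 windows each held 3 GC boxes and 1 CCAAT box. In Reck the GC boxes began 136, 99 and 48 bases before the start and the CCAAT box 75 bases before it. In Timp3 they began 158, 130 and 75 bases before the start and the CCAAT box 87 bases before it. The Timp2 window held 1 GC box, 54 bases before the start, and no CCAAT box. Of all 33469 promoter windows 30.5% held a GC box, 34.0% a CCAAT box and 2.17% at least 3 GC boxes with a CCAAT box, a combination chosen after the windows were seen. None of the 6 windows held a match to TGANTCA (6.34% of all windows), the NF-kB consensus (6.33%) or TATAAA (12.9%). The Timp1 window, not shown, overlapped the annotated Timp1 gene. It held 1 match to TGAGTAA, the form of AP-1 site known from the Timp1 promoter, 108 bases before the RefSeq start. Of all windows 2.38% held such a match. A match is a description of the letters and not evidence of binding.

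Co-culture was next set against IL-1β alone. Mmp2, Mmp14, Reck and Timp3 were lower in co-culture, while Timp1, Timp2 and Mmp16 did not pass. Of the 7 tested genes 4 fell and none rose, with a median log2 fold change of -0.4 against 0.062 for all genes tested. Among all genes 50.0% passed, 33.3% as higher and 16.7% as lower, or 3786 higher and 1901 lower genes. Median-of-ratios scaling gave 2720 and 2636.

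Timp3 had the largest fall of the group. It was at 3.44, 3.26 and 3.12 FPKM in co-culture, below every IL-1β library, and fell by 1.15 ± 0.05 on the log2 scale (limma adjusted p = 8.3e-09). Only 177 of the 11372 genes fell further. Mmp2 was at 690, 696 and 679 FPKM in co-culture (log2 fold change -0.83 ± 0.03, limma adjusted p = 4.2e-10). Reck was at 57.9, 60.6 and 59.1 FPKM (log2 fold change -0.69 ± 0.04, limma adjusted p = 2.6e-08). The co-culture libraries of both genes lay between the control and the IL-1β libraries. Mmp14 was at 208.6, 212.5 and 214.0 FPKM, a difference of -0.40 ± 0.03 on the log2 scale from IL-1β alone (limma adjusted p = 3.8e-07), and its co-culture libraries lay below those of both other groups.

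Timp1 kept most of its rise. Its co-culture libraries stood at 648, 611 and 581 FPKM, the first within the IL-1β range and the other two below it. The log2 fold change from IL-1β alone was -0.09 (95% interval -0.168 to -0.002), which did not pass (limma adjusted p = 0.082). It was lower with an adjusted p of 0.0062 after median-of-ratios scaling and 0.01 without co-culture replicate 1, the highest library. Timp2, at 298.2, 304.3 and 299.6 FPKM in co-culture, lay within the IL-1β range (log2 fold change -0.01, 95% interval -0.098 to 0.079, limma adjusted p = 0.87). Mmp16, at 6.26, 6.82 and 6.14 FPKM, overlapped the IL-1β libraries (log2 fold change 0.03, 95% interval -0.088 to 0.155, limma adjusted p = 0.65). The sign of the small differences of Timp2 and Mmp16 changed with the scaling.

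Timp4 was at 0.41, 0.76 and 0.44 FPKM in co-culture, above the IL-1β libraries and below the control libraries, with an adjusted p of 0.012 in the fit without the filter (limma). Mmp15 was at 0.18, 0.45 and 0.35 FPKM and overlapped both other groups. Mmp17, at 0.97, 1.23 and 1.05 FPKM, lay above the IL-1β libraries and within the control range, and its adjusted p was 0.12 in the fit without the filter (limma).

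**Figure D2:**
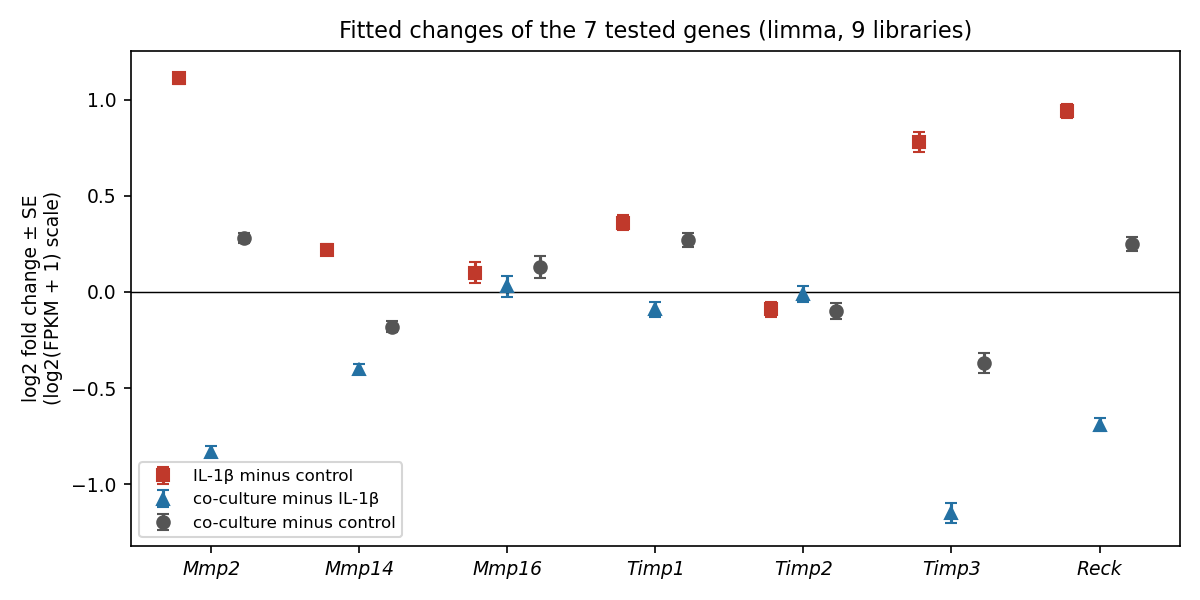
Log2 fold change on the log2(FPKM + 1) scale, with SE, of the 7 tested genes in the 3 comparisons (squares IL-1β minus control, triangles co-culture minus IL-1β, circles co-culture minus control; limma fit over 9 libraries). Mmp14 and Timp3 are below 0 in co-culture minus control although both rose with IL-1β, while Timp1 differs little between co-culture and IL-1β.

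Against untreated control, the co-culture cells differed in 5 of the 7 tested genes, 3 higher and 2 lower, where 20.3% of all genes passed, 12.4% as higher and 7.91% as lower (1408 and 899 genes). Other scalings gave 1147 and 1072 (median-of-ratios), 1008 and 1166 (quantile) and 750 and 1457 genes (the same FPKM sum). The median log2 fold change of the 7 was 0.13 against 0.018 for all genes tested. Mmp2 was still higher, 1.21-fold (log2 fold change 0.28 ± 0.03, limma adjusted p = 2.4e-05), as were Timp1, also 1.21-fold (0.27 ± 0.04, adjusted p = 0.00039), and Reck, 1.19-fold (0.25 ± 0.04, adjusted p = 0.00049). Timp3 fell by 0.37 ± 0.05 on the log2 scale (limma adjusted p = 0.00039), to 3.27 ± 0.16 FPKM from 4.54 ± 0.122. Mmp14 fell by 0.18 ± 0.03 (limma adjusted p = 0.00081), to 211.7 ± 2.81 FPKM from 240.0 ± 5.04. The co-culture and control libraries did not overlap for these 5 genes, nor for Timp2 and Mmp16, the tested genes that did not pass. Lack of overlap thus does not set the 5 apart, and its share among all genes was not counted.

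Timp2 had a log2 fold change of -0.10 (95% interval -0.192 to -0.014) and did not pass, with a limma adjusted p of 0.099. It passed without control replicate 3 (adjusted p = 0.038) and after rescaling to the same FPKM sum (adjusted p = 0.039). Mmp16 had a log2 fold change of 0.13 (95% interval 0.01 to 0.253) and did not pass either (limma adjusted p = 0.12). Timp4 had an adjusted p of 0.013 in the fit without the filter (limma), the co-culture mean being 0.505 times that of control.

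The genes differed in how much of the IL-1β change was left in co-culture, taken as the co-culture log2 difference from control over that of IL-1β. Mmp2 kept 25.2%, Reck 26.3% and Timp1 76.2%. Timp3 lay at -48.1% and Mmp14 at -82.1%, on the other side of control. The 3 comparisons share their groups in pairs, so these shares are a description and carry no test.

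Because FPKM is scaled by length, genes can be set against each other within a library. The ratio of Mmp2 to Timp2 was 1.70, 1.74 and 1.83 in the control libraries, 3.96 to 4.2 with IL-1β and 2.31, 2.29 and 2.27 in co-culture. The 3 groups did not overlap, and the means were 1.76 ± 0.0701, 4.04 ± 0.136 and 2.29 ± 0.0234. Mmp14 to Timp2, the pair that forms the surface receptor for proMMP2, stood at 0.743 ± 0.0175 in control, 0.924 ± 0.0523 with IL-1β and 0.704 ± 0.00901 in co-culture, again without overlap, the co-culture libraries (0.698 to 0.714) lying just under the lowest control library (0.728).

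The summed metalloproteinase genes and the summed TIMP genes were nearly level at rest. Mmp2 and Mmp14 to Mmp17 summed to 814.3 ± 8.35 FPKM in control and Timp1 to Timp4 to 835.8 ± 10.9 FPKM, a ratio of 0.974 ± 0.00879. With IL-1β the sums were 1510 ± 22.1 and 961.8 ± 23.5 FPKM, a ratio of 1.57 ± 0.0302, so the first sum had risen more. In co-culture they were 908.0 ± 8.08 and 917.9 ± 33.0 FPKM, a ratio of 0.99 ± 0.0334, and its libraries (0.954, 0.997 and 1.02) spanned the control range (0.965 to 0.982). The log2 difference of this ratio between co-culture and control was 0.02 ± 0.03 (exact permutation p = 0.5, two-sided). Other secreted metalloproteinase genes, such as Mmp3 and Mmp13, are not in the first sum. Mmp3 had a mean of 195.6 FPKM in control and 843.8 in co-culture, and Mmp13 of 73.2 and 71.6 FPKM.

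Although that ratio in co-culture spanned the control values, the makeup of the inhibitors differed. Timp1 made up 60.7% ± 1.22 of the summed TIMP FPKM in control, 67.6% ± 0.696 with IL-1β and 66.8% ± 1.28 in co-culture, the last 2 groups overlapping (exact permutation p = 0.4 between them). In all, 12 comparisons of 4 ratios were made. The other 10 had an exact permutation p of 0.1, the smallest that 3 against 3 libraries can give, or 0.12 after Benjamini-Hochberg adjustment over the 12, so no ratio could pass 0.05. These are ratios of transcripts and say nothing of the amount of active enzyme.

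**Figure D3:**
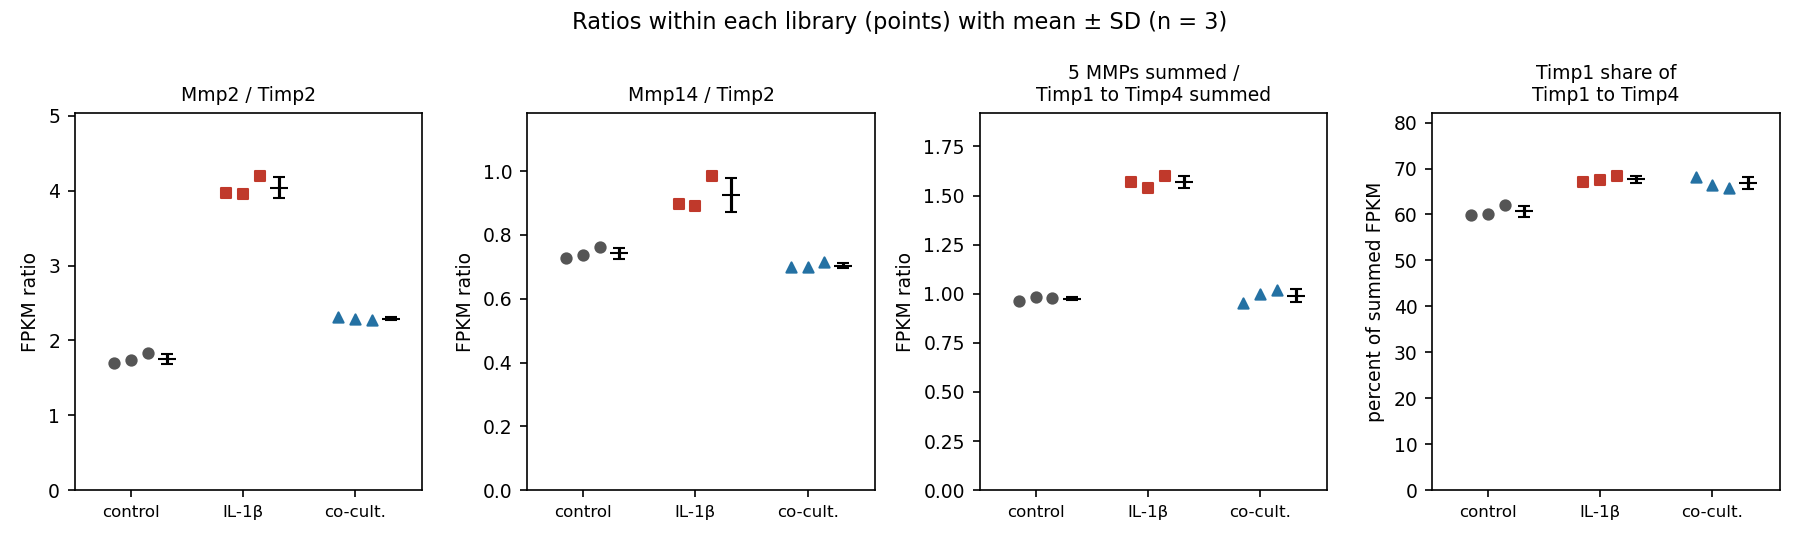
Ratios of FPKM within each library, and the percent of summed TIMP FPKM held by Timp1 (vertical axes from 0), for control (circles), IL-1β (squares) and co-culture (triangles), with the mean and SD of 3 libraries as black bars. Mmp2 and Mmp14 to Mmp17 summed over the summed TIMPs gave 1.54 to 1.60 with IL-1β and 0.954 to 1.02 in the other 2 groups. The Timp1 share is at 65.7% to 68.4% in both IL-1β groups and at 59.9% to 62.1% in control.

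Genes that act on, beside or after these proteases were counted from lists of known partners. Each count is to be read against all genes, of which 51.7% passed with IL-1β and 50.0% between co-culture and IL-1β alone. Of the other membrane-type metalloproteinase genes, Mmp25 was listed at 0 in 7 of 9 libraries and was not tested. Mmp24 was at 1.25 ± 0.141 FPKM in control and 0.953 ± 0.17 with IL-1β, and did not pass (limma adjusted p = 0.07). It passed under 3 of 18 alternatives, with an adjusted p of 0.037 without IL-1β replicate 2, 0.037 without trended, robust moderation and 0.025 after rescaling to the same FPKM sum. Of 4 proprotein convertase genes, whose products remove the propeptide of membrane metalloproteinases, 2 were higher and 2 lower with IL-1β. Furin, the best known of them, went from 74.4 ± 2.91 to 89.2 ± 1.52 FPKM and was at 73.9 ± 2.46 FPKM in co-culture (log2 fold changes 0.26 ± 0.04 and -0.27 ± 0.04, limma adjusted p = 1e-04 and 9.8e-05). Pcsk5 went from 1.27 ± 0.11 to 3.81 ± 0.298 and to 1.75 ± 0.0451 FPKM. Pcsk6 had the reverse pattern, 4.32 ± 0.387, 1.86 ± 0.117 and 3.02 ± 0.137 FPKM, as had Pcsk7, and all 4 convertase genes passed in both comparisons.

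Of 12 secreted metalloproteinase genes listed 8 were tested, 5 higher and 2 lower with IL-1β, with a median log2 fold change of 2.57. The stromelysin gene Mmp3 had a mean of 195.6 FPKM in control and 3556 with IL-1β, and the collagenase gene Mmp13 of 73.2 and 779.7 FPKM (log2 fold changes 4.18 and 3.39, against 1.11 for Mmp2). Mmp9, the other gelatinase gene, was under 1 FPKM in control (0.59) and at 621 FPKM with IL-1β, and its fitted log2 fold change depended on the pseudocount (6.807 to 9.815 over the alternatives). In co-culture 5 were lower than with IL-1β alone and 2 higher. In mean FPKM Mmp2 stood above all 3 in control cells, but below Mmp3 with IL-1β (1223 against 3556) and in co-culture (688.5 against 843.8).

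Surface partners and uptake genes, 13 in all, were higher in 7 and lower in 3 with IL-1β, with a median of 0.17, and lower in 7 and higher in 4 in co-culture against IL-1β alone. The hyaluronan receptor gene Cd44, whose product binds MMP14, went from 136.3 ± 1.31 to 288.4 ± 2.72 and to 150.5 ± 1.38 FPKM. Thbs1 and Thbs2, whose thrombospondins bind MMP2 and promote its uptake, fell with IL-1β by 0.54 ± 0.03 and 0.45 ± 0.03 on the log2 scale (limma adjusted p = 6.7e-08 and 3.9e-08). Both were higher in co-culture than with IL-1β alone (0.41 and 0.33). Cd63, which encodes a tetraspanin receptor of TIMP1, rose by 0.17 ± 0.04 with IL-1β (limma adjusted p = 0.006), a call lost after quantile normalization (adjusted p = 0.18) and after rescaling to the same FPKM sum (adjusted p = 0.051).

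Of 8 ADAM and ADAMTS genes, a family that TIMP3 can inhibit in several members, 4 were higher and 1 lower with IL-1β, with a median of 0.07. Adam17, which encodes the sheddase of TNF, went from 52.9 ± 0.393 to 85.7 ± 2.48 and to 57.8 ± 1.38 FPKM, and its rise with IL-1β was 0.68 ± 0.03 on the log2 scale (limma adjusted p = 6.4e-09). Adam17 and Timp3 were thus both higher with IL-1β and both lower in co-culture than with IL-1β alone. Adamts1 was at 82.2 ± 1.06, 117.7 ± 2.72 and 108.8 ± 1.5 FPKM in control, IL-1β and co-culture, with a log2 difference of -0.11 between co-culture and IL-1β alone (limma adjusted p = 0.0066, but 0.069 after rescaling to the same FPKM sum). Adam12 was higher with IL-1β and Adam19 lower, by 0.19 and -0.50 on the log2 scale. In co-culture 3 of the 8 were lower and 1 higher than with IL-1β alone.

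Other extracellular protease inhibitor genes, of which 7 of 9 were in the table and 5 were tested, were higher in 3 and lower in none with IL-1β (median 0.53). Serpine2, a serpin gene, went from 499.1 ± 5.48 to 736.4 ± 9.1 and to 463.1 ± 5.17 FPKM, and Serping1, the C1 inhibitor gene, from 26.1 ± 0.789 to 68.7 ± 0.907 and to 44.4 ± 3.05 FPKM. In co-culture 3 of the 5 were lower and 1 higher than with IL-1β alone.

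Of 12 matrix substrate genes 5 were higher and 7 lower with IL-1β (median -0.49), and 5 were lower and 6 higher in co-culture against IL-1β alone. Among the collagens the directions differed by type. The fibrillar collagen genes Col1a1 and Col3a1 went from 3170 ± 113 to 1587 ± 54.8 and from 1734 ± 35.7 to 425 ± 6.13 FPKM with IL-1β. Col4a1 and Col4a2, the type IV collagen genes, named after their values were seen, went from 213.2 ± 7.77 to 383.9 ± 11.8 and from 158.3 ± 7.6 to 257.4 ± 6.97 FPKM (log2 fold changes 0.85 ± 0.04 and 0.70 ± 0.04, limma adjusted p = 3.5e-09 and 2.8e-08), and stood at 209.5 ± 6.39 and 153.6 ± 3.8 FPKM in co-culture. Acan, the aggrecan gene, fell by 2.96, and Dcn, the gene of the proteoglycan decorin, rose by 2.28.

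**Figure D4:**
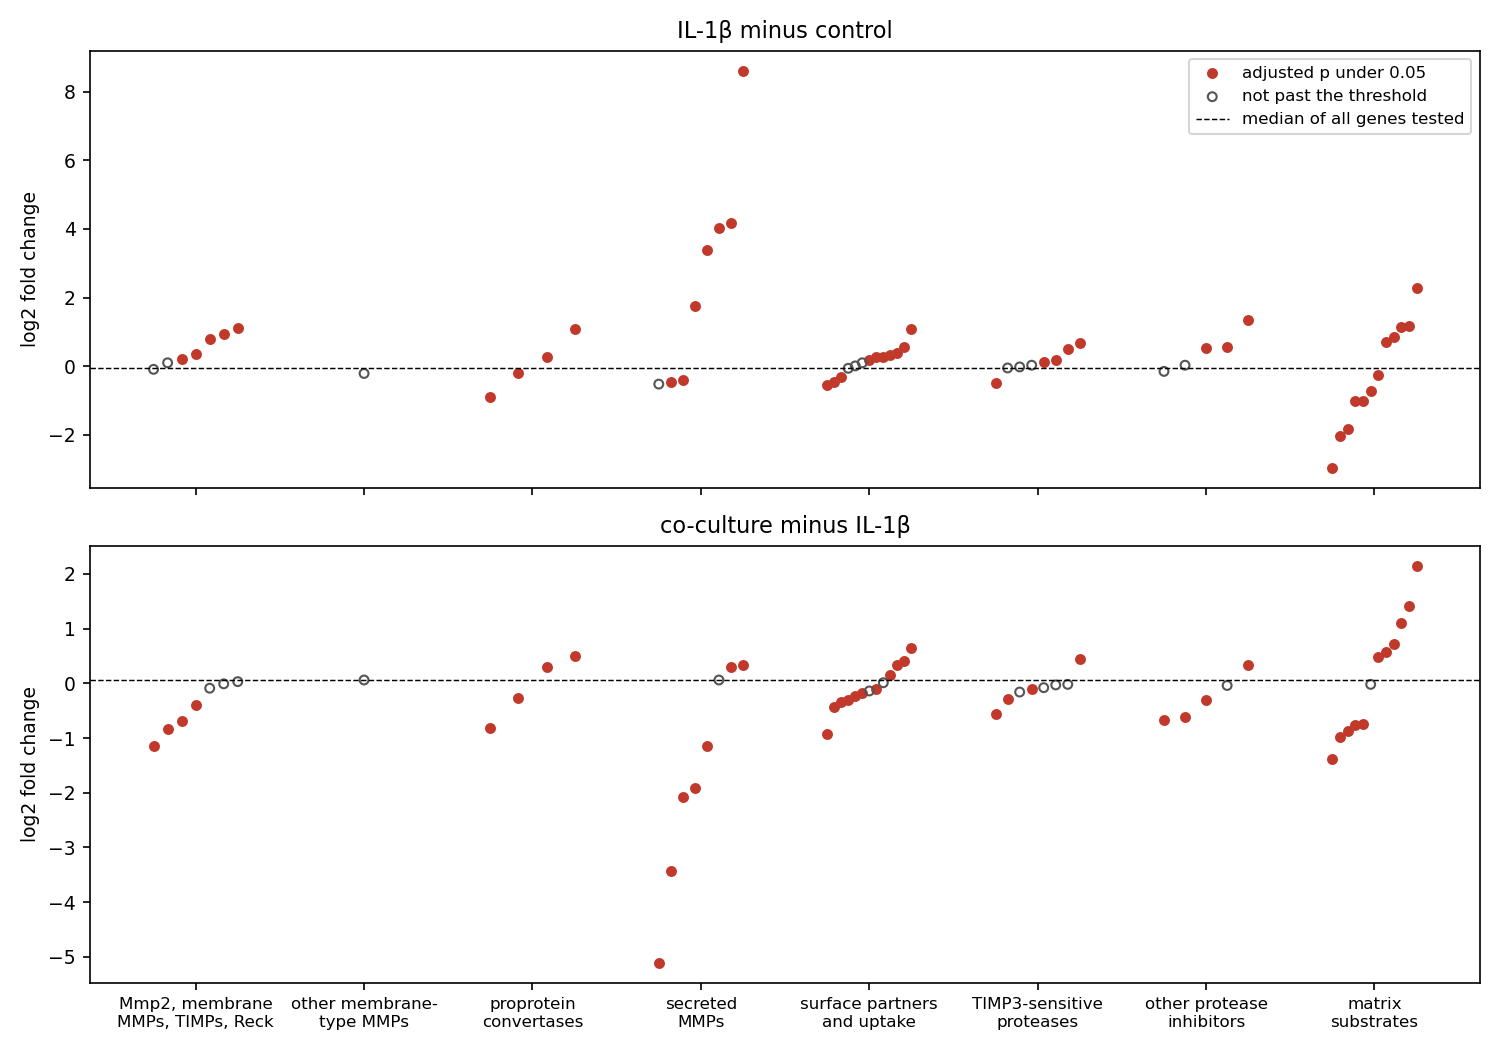
Log2 fold change on the log2(FPKM + 1) scale (vertical axes) of each tested gene in the group studied here and in 7 lists of related genes, for IL-1β minus control (top) and co-culture minus IL-1β (bottom). Filled points passed the threshold, open points did not, and the dashed line is the median of all genes tested, -0.044 and 0.062.

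Genes with the most similar patterns were taken among 6755 genes with a mean of at least 10 FPKM, by the distance between the group means of log2(FPKM + 1), centred per gene, over the 3 conditions. The nearest to Mmp2 were Sulf1, Ednrb and Sdc4, at distances of 0.0303, 0.0365 and 0.0372. Sulf1, which encodes a heparan sulfate sulfatase, had mean levels of 47.2, 103 and 56.0 FPKM in control, IL-1β and co-culture. The nearest to Timp1 were Cklf, Mrps10 and Wisp1, at 0.0028, 0.00766 and 0.0157. The nearest to Timp3 lay farther off, Ddit4l at 0.101, LOC690468 at 0.102 and Eno2 at 0.163. Timp3 itself had a mean of 5.43 FPKM, below the 10 FPKM asked of candidates. Genes at its own level were therefore not searched, and its distances cannot be read as an unusual pattern. Eno2 is an unsteady match, since its log2 difference between co-culture and IL-1β moved from -1.688 to -0.97 over the alternatives. Cklf is unsteady as well, despite its small distance from Timp1. Its co-culture libraries stood at 13.87, 9.89 and 9.21 FPKM, and the same log2 difference moved from -0.254 to 0.018.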

How the data were processed

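RNA was sequenced after oligo(dT) capture, fragmentation, random-primed reverse transcription and circularisation of single strands, per the labels' protocols. The authors deposited FPKM with 2 decimals for 17298 genes in 9 libraries, per the file headers. The submitters' processing notes name the build GRCm38, a mouse build, whereas 16152 of the 17298 gene identifiers (93.4%) and all 10 genes studied are in the rat RefSeq table (GRCr8). The reference that the reads were aligned to was not settled, and levels compared between genes carry that uncertainty. Aligner, quantifier and annotation: not given in the sources used here. No counts were used and the depth is unknown; FPKM summed to 679774 to 741810 per library, and precision rests on the spread of 3 libraries.

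Genes with a mean of at least 1 FPKM (11372) were fitted as log2(FPKM + 1) with limma 3.58.1 in R 4.3.3, 1 coefficient per group over 9 libraries, with trended, robust moderation, and tested on simulated data. P-values were two-sided, adjusted by the Benjamini-Hochberg method with a threshold of 0.05. Ratios were compared by exact permutation tests with scipy 1.17.1. Sequences came from RefSeq windows matched by gene identifier. Other pseudocounts, filters, scalings, moderation, a replicate block, pairwise fits and leaving out each library were tried, and rescaling to 1 FPKM sum was added after seeing the data. The genes and lists were chosen with earlier results of these data known. Named were all 10 genes, from each list the 3 with the smallest p with IL-1β and the 2 with the highest level, and the nearest patterns; a part of these is printed. 1 item that this rule names is not reported here.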

Additional observations from a re-analysis of the deposited data

How the results depend on the processing

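All calls of the 7 tested genes that passed (5 with IL-1β, 4 between co-culture and IL-1β, 5 between co-culture and control) were kept under the 19 alternatives; of 399 values, 383 kept direction and side of the threshold, 9 passed that had not (Timp1 and Timp2, with the values given above; Timp2 with IL-1β also with the replicate block, adjusted p = 0.039) and 7 changed sign. Log2 fold changes with IL-1β ranged from 1.009 to 1.154 for Mmp2, 0.128 to 0.266 for Mmp14, 0.850 to 0.983 for Reck, 0.501 to 0.890 for Timp3 and 0.229 to 0.405 for Timp1. Sign changes were all in differences that had not passed. For co-culture minus IL-1β they were, for Mmp16, -0.024 (median-of-ratios scaling), -0.011 (quantile normalization) and -0.006 (without co-culture replicate 2; to 0.068 without other libraries); for Timp2, 0.018 (quantile normalization), 0.024 (same FPKM sum), 0.016 and 0.003 (without IL-1β replicate 1 or 2; down to -0.048 without others); for Mmp24, -0.009 (quantile normalization, and without IL-1β replicate 3; to 0.117 without others); and for Cklf, 0.018 (without co-culture replicate 3; down to -0.254 without replicate 1). For co-culture minus control they were, for Furin, 0.019 and 0.020 (without control replicate 2 or co-culture replicate 3; down to -0.037 without others), and for Cd63, 0.005 and 0.017 (without control replicate 3 or co-culture replicate 2; down to -0.047 without others). Over all genes, only rescaling to the same FPKM sum moved a count by over 1.5 times, co-culture minus control from 1408 higher and 899 lower to 750 and 1457. The cause was not tested. With the replicate block 5858, 5708 and 2227 genes passed in the 3 comparisons, and 6, 4 and 5 of the genes studied. The replicate numbers were not taken to pair the libraries, since they are not said to do so. Deviations from the group means correlated at -0.046 to 0.189 in the 9 same-numbered pairs, 1 of them over 0.1. Between different numbers they correlated at -0.221 to 0.133. The same-numbered library was the best match in 11 of 18 combinations of a library and another group, so whether the numbers pair was not settled. Without 1 library at a time, 5 to 6, 4 to 5 and 5 to 6 of the genes studied passed, Mmp17 among them without control replicate 1 (with IL-1β, adjusted p = 0.027). A filter at 5 FPKM left 2 of the 4 convertase genes. The 3 genes below the filter rest on levels near or under 1 FPKM at unknown depth.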
